A study of Homo sapiens with 12 samples.

Results

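The 10 genes described here encode the enzymes of the methionine cycle and of transsulfuration: MAT1A, MAT2A, MAT2B, AHCY, AHCYL1, AHCYL2, MTR, MTRR, CBS and CTH. They were chosen by name, as listed enzymes of S-adenosylmethionine synthesis, homocysteine remethylation and transsulfuration, and make up 10 of the 60648 genes in the deposited table. These members and the lists of related genes were chosen with earlier results of these data known. Their counts beside shares of all genes are therefore descriptions and no test of the set. RNA was sequenced from HCT116 cells, an established human colon carcinoma line grown in DMEM with serum, that were either wild type or knocked out for MTHFD2, a folate-pathway enzyme known mainly from mitochondria. Both genotypes were harvested at an initial time, directly after the knock-out was made with CRISPR-Cas9, and at a final time 2 months of culture later, which gave 4 groups of 3 libraries. All knock-out libraries come from 1 clone, so loss of MTHFD2 and other properties of that clone cannot be told apart. Series text calls the libraries of a group biological replicates, without saying whether they were separate cultures, so p-values measure the spread between these libraries only.

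In the methionine cycle, methionine adenosyltransferases join methionine to ATP and make S-adenosylmethionine, the methyl donor of nearly all cellular methylation. Once the methyl group is passed on, the remaining S-adenosylhomocysteine is split into adenosine and homocysteine. Homocysteine is then either methylated back to methionine with a methyl group from the folate cycle, or drawn off through transsulfuration to cystathionine and cysteine.

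Among these enzymes, MAT1A had the largest genotype difference on the log2 scale: it was 2.10-fold higher in knock-out than in wild-type libraries initially and 2.73-fold higher finally. MAT2B and CTH were lower in the knock-out at both harvests. MTRR was higher at the initial and MTR at the final harvest. MAT2A, AHCY, AHCYL1 and AHCYL2 passed the test at neither harvest, and CBS was at the floor of detection.

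Totals were 38597809 to 40017561 counts per library, with 27536 to 29015 genes detected. MTHFD2 was measured at 319 to 457 CPM (each count relative to the TMM-adjusted library total) in the 6 wild-type libraries and at 123 to 155 CPM in the 6 knock-out libraries, which lay below every wild-type library. Of 9 colon epithelial markers, 8 were above the floor of 3 counts in at least 1 library, and CDX1 was at the floor. KRT20 (2 to 27 counts) and VIL1 (1 to 12 counts) were near it, and CDX2 was at 10.7 to 16.5 CPM. Nearly all of the sum came from KRT8, KRT18, KRT19, EPCAM and CDH1. Summed over the 9, the level was 2624 to 3233 CPM in initial wild-type and 2466 to 2705 CPM in initial knock-out libraries, which overlapped. Finally it was 3061 to 3203 against 2214 to 2588 CPM, without overlap. The leukocyte markers summed to 0.0755 to 0.905 CPM, with PTPRC and CD3E at the floor and all final knock-out libraries (at most 0.377 CPM) below all final wild-type ones (at least 0.547 CPM), and the endothelial markers to 1.22 to 2.22 CPM, with CDH5 at the floor. The fibroblast markers, with COL1A2 and DCN at the floor and nearly all of the sum from COL1A1, were lower in the knock-out: they summed to 56.2 to 69.1 CPM in wild-type and 36.5 to 46.5 CPM in knock-out libraries initially, and to 59.4 to 78.1 against 41.5 to 58.0 CPM finally. The part of these markers in the differences of the members was not tested.

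Of the 10 members, 9 passed the filter on low counts and were tested among 18289 genes. In the initial comparison of knock-out with wild type, 4 of the 9 were called by edgeR's quasi-likelihood test at an adjusted p under 0.05, where 19.9% of all tested genes were called. MAT1A and MTRR rose, where 8.55% of all genes were called higher, and MAT2B and CTH fell, where 11.3% were called lower. In the final comparison, 4 of the 9 were called against 18.5% of all genes: MAT1A and MTR rose (8.38% of all genes were called higher), and MAT2B and CTH fell (10.2% were called lower). Averaged over both harvests, 5 of the 9 were called against 30.1% of all genes: MAT1A, MTR and MTRR rose (14% of all genes), and MAT2B and CTH fell (16.1%). Without single libraries the initial count was 1 (initial knock-out replicate 1) or 2 (initial knock-out replicates 2 or 3). The final count was 2 without the final knock-out replicate 2 or the final wild-type replicates 2 or 3, and the average count was 3 when either the initial knock-out replicate 2 or the final wild-type replicate 2 was left out. The median log2 fold change of the 9 members was 0.02 initially, 0.05 finally and 0.06 on average, beside 0.00 over all tested genes each time. The fold changes at each harvest compare different libraries, but of the same clone. The tests also share a spread estimated over all 12 libraries, so the 2 harvests are not independent evidence. The average uses both harvests and is no separate evidence.

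**Figure D1:**
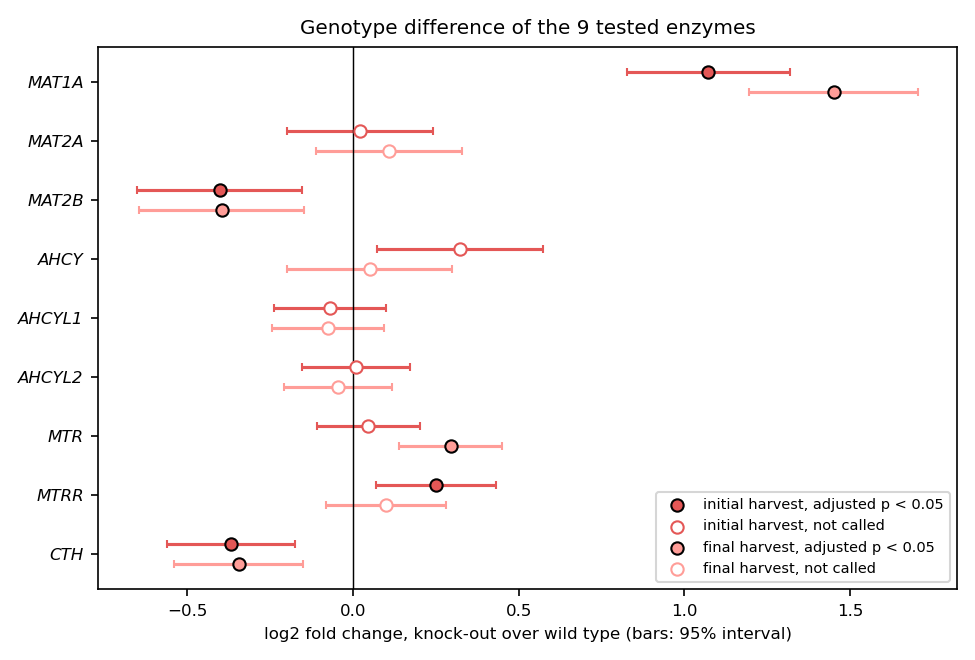
Log2 fold change of knock-out over wild type (horizontal axis) of the 9 tested members at the initial and the final harvest, with 95% intervals from edgeR. MAT1A lies at 1.07 and 1.45, MAT2B and CTH lie below 0 at both harvests, and the other members lie between -0.07 and 0.32.

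The first group of enzymes makes S-adenosylmethionine. MAT1A (ENSG00000151224.13, GRCh38 chromosome 10, 80271820 to 80289658, minus strand) encodes the catalytic subunit that is best known from adult liver. In the initial wild type it had 4.42, 5.41 and 5.41 CPM, and in final wild-type cells 3.80, 3.60 and 4.11 CPM. In the initial knock-out it had 10.2, 10.95 and 10.9 CPM, and in final knock-out cells 10.7, 9.28 and 11.5 CPM. Every knock-out library lay above every wild-type library at both harvests, which held for 12.8% of all tested genes in one direction or the other. Group means were 5.08 ± 0.571 and 3.84 ± 0.26 CPM in wild-type cells of the initial and final harvest, and 10.7 ± 0.425 and 10.5 ± 1.12 CPM in the knock-out (SD, n = 3). MAT1A rose by a log2 fold change of 1.07 initially (SE 0.116, adjusted p 5.31e-06 in edgeR's quasi-likelihood test) and 1.45 finally (SE 0.12, adjusted p 2.2e-07). The average was 1.26 (SE 0.0835, adjusted p 7.03e-09). The values rest on 138 to 458 counts per library, and in bulk RNA more RNA per cell and more cells with the RNA cannot be told apart.

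Hepatocyte markers were also low but not level between genotypes. Of the 3 markers ALB, APOA1 and TTR, 2 were above the floor in at least 1 library and TTR was at it. Their summed level was 0.321 to 0.537 CPM in the initial and 0.285 to 0.469 CPM in final wild-type cells, and 0.727 to 1.21 and 0.728 to 1.11 CPM in knock-out cells of the initial and final harvest. Most of this sum was the single gene ALB, at 9 to 45 counts per library, beside 0 to 8 counts for APOA1. The part of these markers in the MAT1A difference was not tested.

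The letters before the start of MAT1A, MAT2A and CTH are shown because 2 of these genes moved in opposite directions and MAT2A did not pass the test. They come from windows of 250 bases before RefSeq starts on GRCh38.p14, 5′ to 3′ on the strand of the gene. Letters are printed up to the base before the start of the gene in the deposited table. The CTH window ran on to base 70411267, past that start, and was cut to 200 bases. Capitals mark matches to any of 4 motifs, searched on both strands. For the element bound by ATF4 the letters were TGATGNAA. For the E-box, bound by MYC and related factors, they were CACGTG. For the TATA box, near which transcription starts, they were TATAAA. For the GC box, bound by SP1 and its relatives, they were GGGCGG. The windows are chr10:80289659-80289908 for MAT1A, chr2:85538918-85539167 for MAT2A and chr1:70411018-70411217 for CTH.
MAT1A: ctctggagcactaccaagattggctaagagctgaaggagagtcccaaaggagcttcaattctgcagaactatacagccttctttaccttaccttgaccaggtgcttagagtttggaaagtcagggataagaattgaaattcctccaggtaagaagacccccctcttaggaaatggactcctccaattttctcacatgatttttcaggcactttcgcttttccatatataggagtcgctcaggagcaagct
MAT2A: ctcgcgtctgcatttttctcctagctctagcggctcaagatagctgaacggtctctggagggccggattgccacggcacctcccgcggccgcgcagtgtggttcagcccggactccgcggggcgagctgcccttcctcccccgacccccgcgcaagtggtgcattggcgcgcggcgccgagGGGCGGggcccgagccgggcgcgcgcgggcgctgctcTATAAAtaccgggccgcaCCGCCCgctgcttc
CTH: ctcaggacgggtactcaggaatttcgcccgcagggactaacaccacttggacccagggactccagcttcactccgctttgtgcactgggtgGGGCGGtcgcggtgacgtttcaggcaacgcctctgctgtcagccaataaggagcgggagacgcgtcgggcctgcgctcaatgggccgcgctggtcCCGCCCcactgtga
The MAT1A window, at 44.8% G and C, held no match, which says only that these letters are not in it. The MAT2A window, at 71.6% G and C, held 1 TATAAA and 2 GGGCGG matches, and the CTH window of 200 bases, at 64.5%, held 2 GGGCGG matches. Uncut, at 250 bases and 61.6%, the CTH window held 2 GGGCGG matches as well. No match overlapped another. Among 35116 promoter windows of 250 bases, 3.14% held TGATGNAA, 6.35% CACGTG, 10.7% TATAAA and 42.6% GGGCGG. The table matched 9 of the 10 members and lacked MTRR.

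MAT2A (ENSG00000168906.13, chromosome 2, 85539168 to 85545281, plus strand) encodes the catalytic subunit of most tissues and growing cells. It was read at 526, 476 and 484 CPM in initial wild-type cells and 521, 522 and 467 CPM in initial knock-out cells. At the final harvest it had 638, 524 and 535 CPM in the wild type and 574, 692 and 564 CPM in the knock-out. The genotypes overlapped at both harvests. The log2 difference was 0.02 initially (95% interval -0.20 to 0.24, adjusted p 0.918 in edgeR's quasi-likelihood test) and 0.11 finally (-0.11 to 0.33, adjusted p 0.536). Within the knock-out all 3 final libraries were above all 3 initial ones, at a log2 difference of 0.28 that did not pass (unadjusted p 0.0165, adjusted p 0.21). The share of all tested genes with such a gap between harvests was not counted. GGCX overlaps MAT2A on the other strand with 2181 to 3172 counts per library, and use of strand in the counting is not given in the sources used here.

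MAT2A RNA is known to carry hairpins in its 3′ untranslated region that the RNA methyltransferase METTL16 binds and methylates, which couples its splicing and stability to the level of S-adenosylmethionine. The target letters are shown because METTL16 itself differed between the genotypes, as given further on, while MAT2A did not pass the test. In the GENCODE 29 transcript of 1508 bases of 3′ untranslated region, TACAGANAA occurs 6 times, starting 40, 827, 1012, 1127, 1242 and 1350 bases after the stop codon. Each is printed in DNA letters as a window of 30 bases, with the match in capitals.
site 1: tggcgtaggcTACAGAGAAgccttcaagct
site 2: tgtgatgtcaTACAGAGAAgtcacagggca
site 3: ctggtgtagcTACAGAGAAaccagcttcct
site 4: atggcgtaagTACAGAGAAgccatcacctc
site 5: caaggtgtccTACAGAAAAaccttgggtta
site 6: gctggtgtggTACAGAGAAgccagcttgtt
The fifth site reads TACAGAAAA and the other 5 read TACAGAGAA. Of 7681 genes with as long a window, 6.2% held at least 1 match, and MAT2A was the 1 gene with as many as 6. MAT2A is already known as a target with these letters, so its place in this count is no separate evidence. A match is a description of letters, and methylation of these sites was not measured.

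MAT2B (ENSG00000038274.17, chromosome 5, 163503114 to 163519354, plus strand) encodes the regulatory subunit that binds the MAT2A protein. Initially it was at 77.3, 79.1 and 71.6 CPM in the wild type and 52.8, 57.6 and 62.2 CPM in the knock-out, with no overlap. Finally it was at 69.2, 93.6 and 92.6 CPM in the wild type and 73.8, 57.0 and 63.4 CPM in the knock-out, where the lowest wild-type library lay below the highest knock-out library. MAT2B fell by 0.40 on the log2 scale at both harvests (SE 0.117 at each, adjusted p 0.0237 and 0.0257 in edgeR's quasi-likelihood test) and on average (SE 0.0828, adjusted p 0.00156). Single libraries decided the call at each harvest. The initial value was -0.34 (adjusted p 0.103) when the initial knock-out replicate 1 was left out and -0.40 (0.0739) when replicate 2 was. The final value was -0.31 (0.111) and -0.39 (0.0647) without the final knock-out replicate 2 or 3, and -0.33 (0.114 and 0.103) without the final wild-type replicate 2 or 3.

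**Figure D2:**
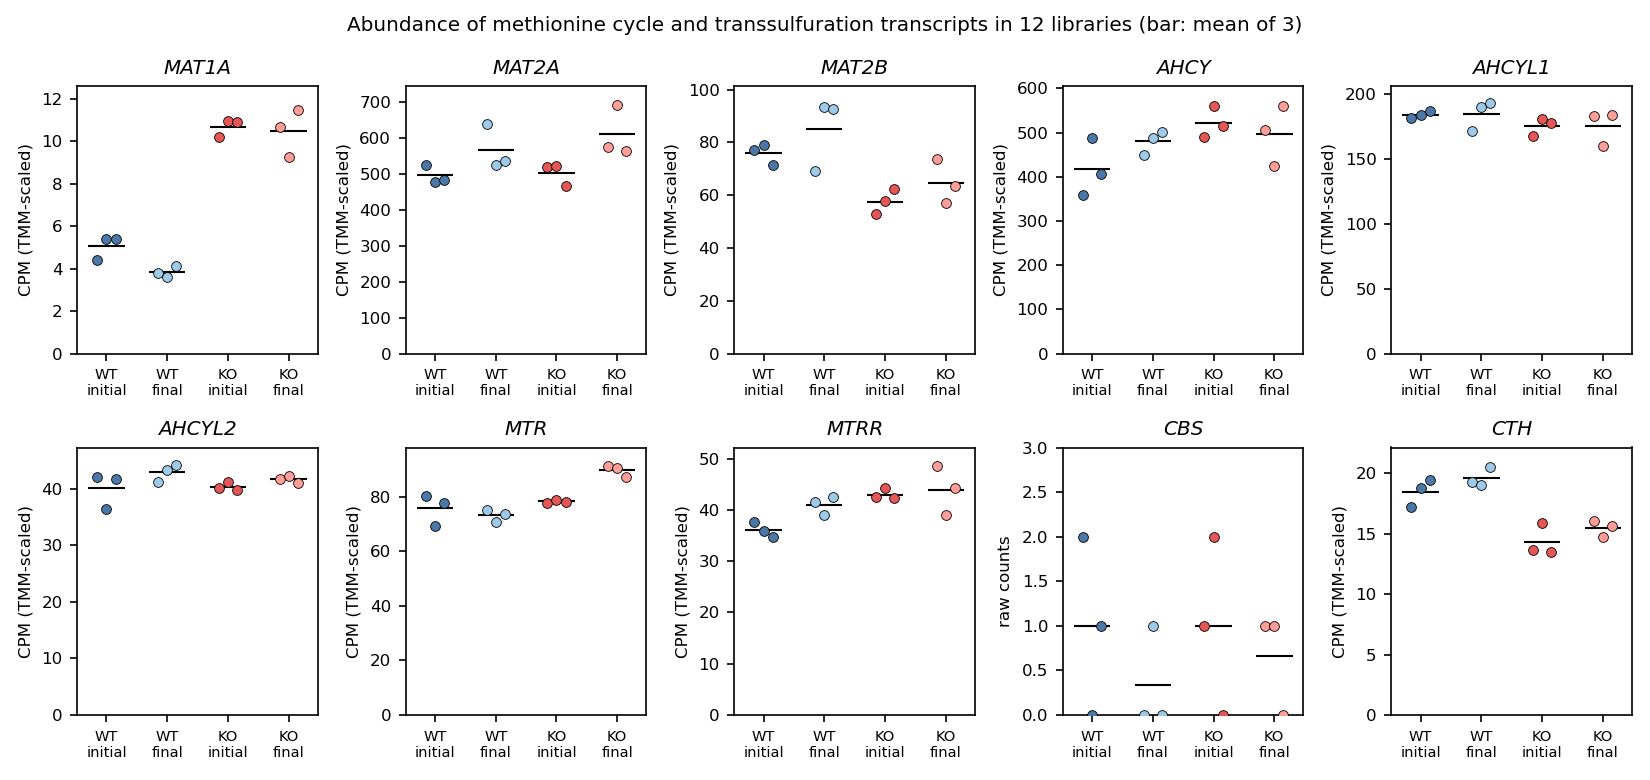
TMM-scaled CPM of each member in each of the 12 libraries (points) by group, with group means as bars, on axes of their own; CBS is given in counts. The MAT1A points of the knock-out, 9.28 to 11.5 CPM, lie above all wild-type points, and the CTH points of the knock-out lie below all wild-type points.

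The next step splits S-adenosylhomocysteine. AHCY (ENSG00000101444.13, chromosome 20, 34280268 to 34311802, minus strand), the hydrolase itself, had 359, 487 and 405 CPM in initial wild-type cells and 490, 561 and 516 CPM in initial knock-out cells. These ranges were apart by the small gap between 487 and 490 CPM. At the final harvest they overlapped, at 450, 488 and 501 CPM in the wild type and 505, 425 and 561 CPM in the knock-out. The initial log2 difference of 0.32 missed the threshold (SE 0.118, adjusted p 0.0661 in edgeR's quasi-likelihood test), the final one was 0.05 (adjusted p 0.823) and the average 0.19 (adjusted p 0.105). AHCY passed initially without the initial wild-type replicate 2 (0.45, adjusted p 0.00886) or the final knock-out replicate 2 (0.33, adjusted p 0.045), and on average without either (0.25, adjusted p 0.0187, and 0.24, adjusted p 0.0378). It also passed initially in DESeq2 (0.33, adjusted p 0.0428) and with no filter on low counts (0.32, adjusted p 0.0153).

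AHCYL1 (ENSG00000168710.18, chromosome 1, 109984765 to 110023742) and AHCYL2 (ENSG00000158467.16, chromosome 7, 129225023 to 129430211) encode proteins that resemble AHCY and are known as regulators that bind the IP3 receptor or other transporters. AHCYL1 was at 182, 184 and 187 CPM in initial wild-type cells and 168, 180 and 178 CPM in initial knock-out cells, ranges that did not overlap. Finally it was at 171, 190 and 193 CPM in the wild type and 183, 160 and 184 CPM in the knock-out, which overlapped. The AHCYL1 log2 difference was -0.07 at each harvest (95% interval initially -0.24 to 0.10), and it did not pass. AHCYL2 ranged from 36.4 to 44.2 CPM over all 12 libraries, with genotypes that overlapped at both harvests. Its log2 difference was 0.01 initially (95% interval -0.15 to 0.17) and -0.04 finally (-0.21 to 0.12).

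Homocysteine is methylated back to methionine by MTR (ENSG00000116984.15, chromosome 1, 236795260 to 236921278, plus strand), the cobalamin-dependent methionine synthase. MTR had 80.4, 69.5 and 77.7 CPM in initial wild-type cells and 77.7, 79.0 and 78.3 CPM in initial knock-out cells, which overlapped. At the final harvest it had 75.3, 70.8 and 73.5 CPM in the wild type and 91.4, 90.6 and 87.3 CPM in the knock-out. Every final knock-out library was above all other libraries, and the share of all tested genes set apart in this way was not counted. MTR rose by 0.29 on the log2 scale finally (SE 0.0732, adjusted p 0.0089 in edgeR's quasi-likelihood test) and by 0.17 on average (SE 0.0517, adjusted p 0.0194), beside 0.05 initially (adjusted p 0.716). The change of the genotype difference between harvests was 0.25, which did not pass (unadjusted p 0.0287, adjusted p 0.328). The final call was lost without the final wild-type replicate 2 (0.26, adjusted p 0.0567). The average call was lost without that library (0.16, adjusted p 0.0579), without the initial knock-out replicate 2 (0.17, adjusted p 0.0506) and with no filter (0.17, adjusted p 0.104).

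MTRR (ENSG00000124275.15, chromosome 5, 7851186 to 7906025, plus strand) encodes the reductase that restores the cobalamin of MTR to its active state. It had 37.7, 35.95 and 34.8 CPM in initial wild-type cells and 42.5, 44.2 and 42.2 CPM in initial knock-out cells, which did not overlap. At the final harvest it had 41.6, 38.9 and 42.5 CPM in the wild type and 48.5, 39.1 and 44.3 CPM in the knock-out, which overlapped. MTRR rose by 0.25 on the log2 scale initially (SE 0.0855, adjusted p 0.0493 in edgeR's quasi-likelihood test) and by 0.18 on average (SE 0.0604, adjusted p 0.0374), beside 0.10 finally (adjusted p 0.48). The initial call was close to the threshold. It was lost when any 1 of 10 libraries was left out, all but the final knock-out replicates 1 and 2 (adjusted p 0.0542 to 0.182), with the replicate block (0.25, adjusted p 0.0558) and with no filter (adjusted p 0.129). The average call was lost without any 1 of 9 libraries, all but the final knock-out replicate 2, the initial wild-type replicate 1 and the final wild-type replicate 1 (adjusted p 0.0505 to 0.115), and with no filter (adjusted p 0.11). FASTKD3 overlaps MTRR on the other strand with 670 to 897 counts per library.

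Transsulfuration begins with CBS (ENSG00000160200.18, chromosome 21, 43053191 to 43076943, minus strand), which joins homocysteine to serine. CBS was at the floor in every library: counts were 2, 0 and 1 in initial wild-type cells, 0, 1 and 0 in final wild-type cells, 1, 2 and 0 in initial knock-out cells and 1, 1 and 0 in final knock-out cells. It was not tested, and no fold is given. CBSL (ENSG00000274276.4, chromosome 21, 6444869 to 6468040), a near-identical copy, had 0 counts in all 12 libraries. The 4 coding CBS transcripts of more than 2000 bases share 94.6% to 97.9% of their 50-base words with CBSL. Over all annotated CBS transcripts, including non-coding ones, the share with CBSL is 54.5%. The neighbouring pair U2AF1 and U2AF1L5, a splicing factor and its copy, was also low, at 57 to 97 and 16 to 46 counts. Over all U2AF1 transcripts, 94.3% of the words are shared with the copy, so the 2 pairs are not alike on this measure. How reads that map to both copies were counted is not given in the sources used here, so a count near 0 does not show that CBS RNA was absent.

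CTH (ENSG00000116761.12, chromosome 1, 70411218 to 70439851, plus strand) encodes cystathionine gamma-lyase, which releases cysteine from cystathionine. It had 17.2, 18.8 and 19.5 CPM in initial wild-type cells and 19.3, 19.1 and 20.5 CPM in final wild-type cells. In the knock-out it had 13.6, 15.9 and 13.5 CPM initially and 16.1, 14.7 and 15.6 CPM finally. Every knock-out library was below every wild-type library, where 12.8% of all tested genes lay apart in one direction or the other. CTH fell by 0.37 on the log2 scale initially (SE 0.0916, adjusted p 0.00912 in edgeR's quasi-likelihood test), by 0.34 finally (SE 0.0913, adjusted p 0.0136) and by 0.36 on average (SE 0.0647, adjusted p 0.000482). The initial call was lost without the initial knock-out replicate 1 or 3 (both -0.33, adjusted p 0.0531 and 0.052). The final call was lost without the final knock-out replicate 2 (-0.31, adjusted p 0.0568) or the final wild-type replicate 3 (-0.32, adjusted p 0.0606).

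By ranges alone, 6 of the 9 tested members had initial groups that did not overlap, as did those of 35.5% of all tested genes. MAT1A, AHCY and MTRR were above, and MAT2B, AHCYL1 and CTH below. At the final harvest 3 of 9 did not overlap (MAT1A and MTR above, CTH below), as for 33.1% of all genes. Over both harvests, MAT1A and CTH were the 2 members whose 6 knock-out libraries all lay on one side of the 6 wild-type libraries. Of all tested genes, 12.8% lay apart in this way, in one direction or the other.

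In edgeR, culture time moved no member past the threshold. In the wild type 0 of 9 were called between harvests, where 6.47% of all tested genes were, with 2 at an unadjusted p under 0.05 and 1 called in DESeq2. That gene was MAT1A, at a log2 difference of -0.40 from initial to final (adjusted p 0.0662 in edgeR's quasi-likelihood test, 0.0432 in DESeq2). Its 3 final wild-type libraries were all below its 3 initial ones, and without the initial wild-type replicate 1 the value passed in edgeR (-0.49, adjusted p 0.032). The other of the 2 was MTRR, at 0.18 with final libraries above initial ones. For such gaps between harvests the share of all tested genes was not counted. In the knock-out 0 of 9 were called, where 1.48% of all genes were, with 2 at an unadjusted p under 0.05 (MAT2A and MTR) and 0 in DESeq2. MTR was at 0.20 in that comparison (adjusted p 0.208). For the difference of genotype effects between harvests, 0 of 9 were called, where 1.28% of all genes were, with 2 at an unadjusted p under 0.05 and 0 in DESeq2. Those were MTR and MAT1A, the latter at 0.38 (unadjusted p 0.0376, adjusted p 0.363).

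Levels can be compared between members only per length, as RPKM over each gene's merged exons. MAT2A and AHCY were highest in every group, at group means of 107 to 136 RPKM, and their ranges overlapped except in initial knock-out cells, where AHCY was above MAT2A. AHCYL1 followed at 34.8 to 36.7 RPKM and MAT2B at 11.2 to 16.6 RPKM. In the wild type CTH stood apart above AHCYL2 and MTRR, at 7.66 and 8.13 RPKM initially and finally. In the knock-out CTH was at 5.94 and 6.41 RPKM and overlapped its neighbours in the order, MTRR and AHCYL2. MTR, whose merged exons span 19254 bases, was at 3.80 to 4.66 RPKM. MAT1A was lowest of the tested members in every group, at 1.39 and 1.05 RPKM in the wild type and 2.92 and 2.86 RPKM in the knock-out. Relative to MAT2A per length, MAT1A was at 1.26% ± 0.203 and 0.837% ± 0.106 in wild-type cells of the initial and final harvest, and at 2.61% ± 0.232 and 2.14% ± 0.442 in the knock-out (SD, n = 3). The regulatory subunit MAT2B was at 13.4% ± 0.941 and 13.4% ± 3.41 of MAT2A per length in wild-type cells, and at 10.1% ± 1.43 and 9.42% ± 2.05 in the knock-out, initially and finally (SD, n = 3).

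**Figure D3:**
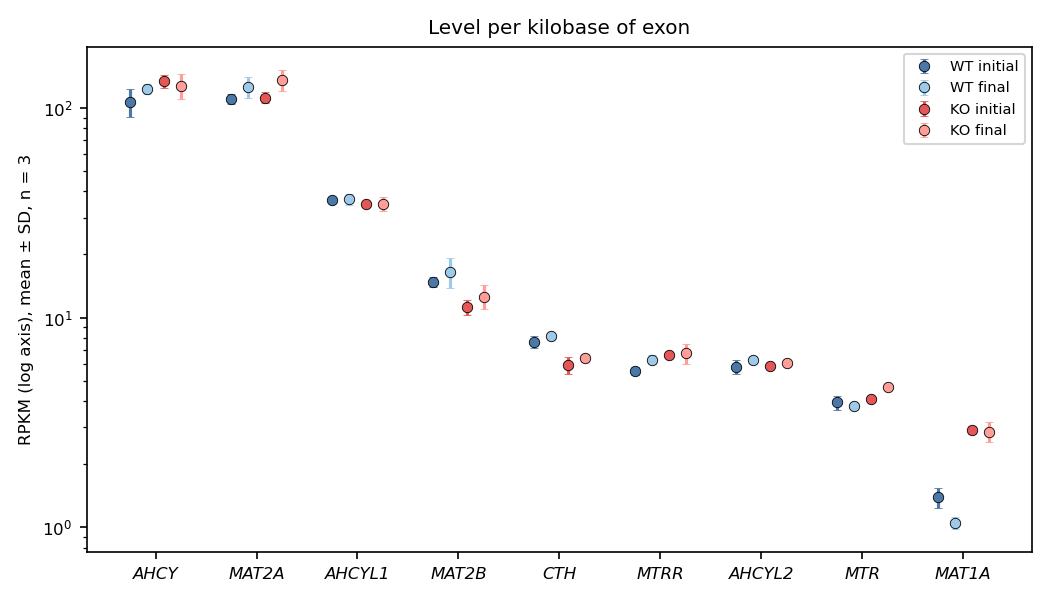
Level of the 9 tested members per exon length (RPKM, log axis) in the 4 groups; points are group means and bars the SD (n = 3). MAT2A and AHCY lie highest, and MAT1A lies lowest of the tested members while moving from 1.05 to 1.39 RPKM in wild type to 2.86 to 2.92 RPKM in the knock-out.

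Genes around the cycle were grouped into 6 lists of 49 genes in all, of which 41 were tested. Averaged over both harvests, 12 of the 41 were called, 3 higher and 9 lower, where 30.1% of all tested genes were. By direction the shares of all genes were 14% higher and 16.1% lower. In the initial comparison 10 were called (3 higher, 7 lower), where 19.9% of all genes were (8.55% higher, 11.3% lower). In the final one 9 were called (2 higher, 7 lower), where 18.5% of all genes were (8.38% higher, 10.2% lower). The counts by list that follow are for the average over both harvests and stand beside the same 14% and 16.1%. The initial count was 5 when the initial knock-out replicate 2 was left out, and 6 when its replicate 3 or the initial wild-type replicate 3 was, and the final count was 5 without the final wild-type replicate 2 or 3. Between harvests 1 gene was called in the wild type, PCMT1, a protein-repair methyltransferase, at 0.28 (adjusted p 0.036 in edgeR's quasi-likelihood test). That call was lost without any 1 of 8 libraries, all but the initial knock-out replicates 1 and 3, the final knock-out replicate 2 and the initial wild-type replicate 2 (adjusted p 0.0529 to 0.152). In the knock-out and for the change of the genotype difference 0 were called by edgeR and by DESeq2 (1 and 5 at an unadjusted p under 0.05 in edgeR). The median log2 fold change of the 41 was -0.03 on average, beside 0.00 for all genes. Of the 8 genes not tested, 6 were at the floor in every library: NNMT, HNMT, AS3MT, BHMT, BHMT2 and GADL1. BHMT encodes the betaine-dependent enzyme that remethylates homocysteine in liver and kidney, and BHMT2 is its close relative.

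Of 4 genes that sense or carry S-adenosylmethionine or control MAT2A RNA, 1 rose and 1 fell on average. METTL16 (ENSG00000127804.13, chromosome 17), the methyltransferase of the MAT2A sites printed above, was at 65.5 ± 0.434 and 69.2 ± 2.62 CPM in wild-type cells of the initial and final harvest and 87.4 ± 3.81 and 84.3 ± 4.67 CPM in the knock-out (SD, n = 3). Its 6 knock-out libraries all lay above its 6 wild-type libraries, where 12.8% of all tested genes lay apart in one direction or the other. METTL16 rose by 0.35 on the log2 scale on average (SE 0.051, adjusted p 5.76e-05 in edgeR's quasi-likelihood test). Its difference was 0.42 initially (adjusted p 0.000571) and 0.29 finally (adjusted p 0.01). The final call was lost without the final knock-out replicate 1 (0.25, adjusted p 0.0626), the final wild-type replicate 2 (0.26, adjusted p 0.0632) or its replicate 3 (0.26, adjusted p 0.0607), and with no filter (0.28, adjusted p 0.056). BMT2, the S-adenosylmethionine sensor also called SAMTOR, was not called initially (-0.30, adjusted p 0.248) and fell finally by 0.54 (adjusted p 0.0316). On average it fell by 0.42 (SE 0.119, adjusted p 0.0132). The 8 tested genes within 2 Mb of BMT2 had a median of -0.27, with 7 below 0, 3 called lower and 0 called higher; their part in its difference was not tested.

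Of 7 tested small-molecule and protein-repair methyltransferases, 1 fell and 0 rose on average. TPMT, the thiopurine methyltransferase on chromosome 6, fell by 1.20 on the log2 scale initially and 1.30 finally (average -1.25, SE 0.102, adjusted p 9.5e-08 in edgeR's quasi-likelihood test). Its group means were 15.9 ± 0.301 and 18.4 ± 2.82 CPM in wild-type cells of the initial and final harvest, and 6.93 ± 1.21 and 7.49 ± 1.17 CPM in the knock-out. The 12 tested genes within 2 Mb of TPMT had a median of -1.13, all 12 were lower, and 11 were called lower. Thus TPMT was lower together with the genes beside it, whose part in its difference was not tested.

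Of 7 tested genes of remethylation and cobalamin handling, 2 fell and 0 rose on average. LMBRD1 (ENSG00000168216.13, chromosome 6), needed to release cobalamin from lysosomes, fell by 0.80 initially and 0.70 finally on the log2 scale (average -0.75, SE 0.095, adjusted p 1.44e-05 in edgeR's quasi-likelihood test). ABCD4, which acts with LMBRD1 in that step, fell initially by 0.31 (adjusted p 0.0266) but was not called finally (-0.21, adjusted p 0.129). On average it fell by 0.26 (SE 0.0652, adjusted p 0.00604). Of the 41 tested genes within 2 Mb of ABCD4, 16 were called lower and 2 higher, with a median of -0.11. CD320, the receptor that takes up cobalamin, rose initially by 0.38 (SE 0.124, adjusted p 0.04) but was not called finally or on average. Its call was lost without any 1 of the initial knock-out replicates 1, 2 and 3, the final knock-out replicate 1, the initial wild-type replicates 1 and 3 and the final wild-type replicate 2 (0.25 to 0.41, adjusted p 0.0501 to 0.147). Cobalamin is the cofactor of MTR.

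Of 13 genes of methionine salvage and polyamine synthesis, 2 rose and 1 fell on average. GOT1, the cytosolic aspartate aminotransferase, fell by 0.48 initially and 0.56 finally (average -0.52, SE 0.0754, adjusted p 5.62e-05 in edgeR's quasi-likelihood test). MRI1 and ADI1, both enzymes of the salvage route, rose by 0.22 (SE 0.0715, adjusted p 0.0276) and 0.20 (SE 0.0628, adjusted p 0.0263). The MRI1 call was lost without the initial knock-out replicate 1, the final knock-out replicates 2 or 3, the initial wild-type replicates 2 or 3 or the final wild-type replicates 2 or 3 (adjusted p 0.0513 to 0.0805). The ADI1 call was lost without the initial knock-out replicates 1 or 3, the final knock-out replicates 1 or 3, the initial wild-type replicate 3 or the final wild-type replicate 3 (adjusted p 0.0549 to 0.0715). With no filter both of these average calls were lost as well (adjusted p 0.0715 and 0.162). By harvest, MRI1 was called initially (0.34, adjusted p 0.026) but not finally (0.10, adjusted p 0.55). ADI1 was called finally (0.31, adjusted p 0.0232) but not initially (0.08, adjusted p 0.56).

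Of 3 genes that remove adenosine, a product of AHCY, 1 fell and 0 rose on average. ADK, adenosine kinase, had 52.1 ± 8.07 and 61.7 ± 5.81 CPM in wild-type cells of the initial and final harvest and 35.7 ± 3.86 and 38.7 ± 4.56 CPM in the knock-out (SD, n = 3). All its knock-out libraries were below all its wild-type libraries, where 12.8% of all tested genes lay apart in one direction or the other. ADK fell by 0.54 initially and 0.67 finally on the log2 scale (average -0.61, SE 0.087, adjusted p 4.99e-05 in edgeR's quasi-likelihood test).

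Downstream of CTH, 3 of 7 tested genes of cysteine breakdown and sulfide handling fell and 0 rose on average, where 16.1% of all genes were called lower and 14% higher. At each harvest 2 of the 7 fell. SQOR, which oxidises sulfide in mitochondria, fell by 0.57 on average (SE 0.0827, adjusted p 5.91e-05 in edgeR's quasi-likelihood test). By harvest it fell by 0.36 initially (adjusted p 0.0414) and by 0.78 finally (adjusted p 0.000153). The change of its genotype difference between harvests was -0.42, which did not pass (unadjusted p 0.022, adjusted p 0.3). CSAD, the decarboxylase on the route to taurine, fell by 0.43 on average (SE 0.118, adjusted p 0.0108). It was called initially (-0.50, adjusted p 0.044) but not finally (-0.36, adjusted p 0.161). MPST, a sulfurtransferase, fell by 0.27 on average (SE 0.0716, adjusted p 0.00801). It was called finally (-0.33, adjusted p 0.03) but not initially (-0.215, adjusted p 0.156). MPST overlaps the related gene TST on the other strand, which had 906 to 1309 counts per library.

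**Figure D4:**
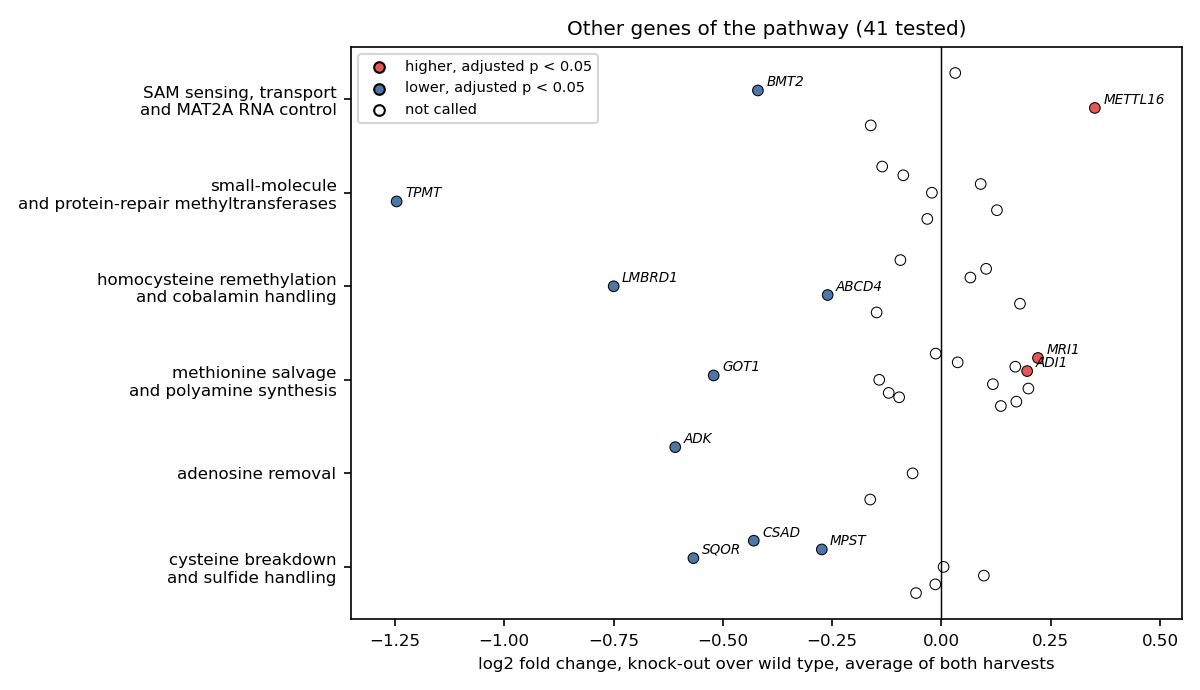
Log2 fold change of knock-out over wild type, averaged over both harvests (horizontal axis), of the 41 tested genes in 6 lists around the methionine cycle; filled points passed the test and are named. TPMT lies lowest at -1.25 and METTL16 highest at 0.35.

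Neighbouring genes were read for the members too. The 12 tested genes within 2 Mb of MAT1A had a median average log2 fold change of 0.08, with 3 called higher and 3 lower. The 4 neighbours of MAT2B had a median of 0.15 with 1 called higher, and the 8 neighbours of CTH a median of 0.08 with 1 called lower. For MTR the 11 neighbours had a median of -0.08 with 3 called lower and 0 higher. For MTRR the 5 neighbours had a median of 0.14 with 2 called higher. MAT1A, MAT2B, CTH and MTR lay away from the median of the genes around them, whereas MTRR, at 0.18, lay near it. These medians rest on few genes and are given without their spread. The part of neighbouring genes in the differences of the members was not tested.

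**Figure D5:**
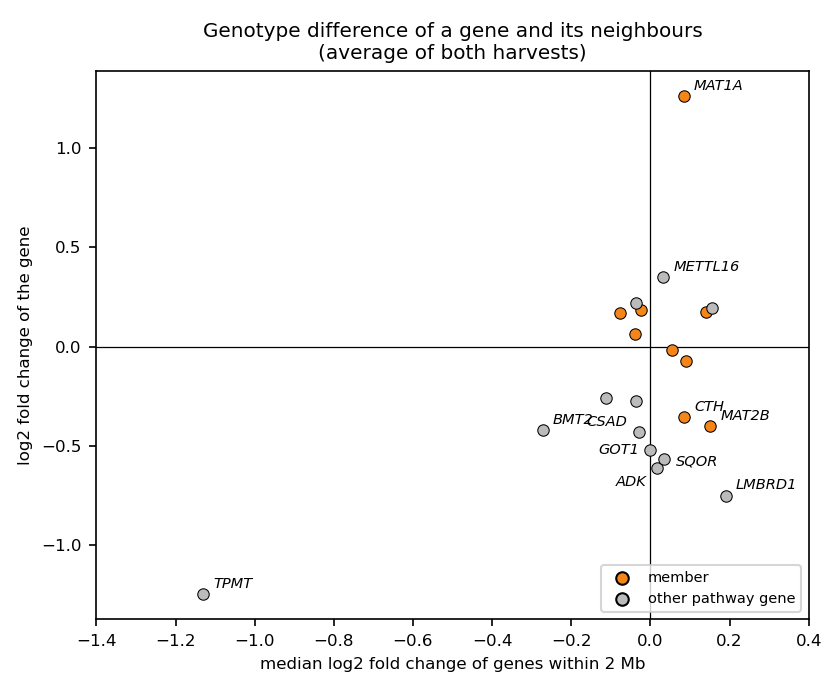
Average log2 fold change of a gene (vertical axis) against the median of the tested genes within 2 Mb of it (horizontal axis), for members and for the called pathway genes. TPMT lies with its neighbours at -1.25 against -1.13, while MAT1A lies at 1.26 against 0.08.

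For each tested member the 2 genes with the most similar levels were sought among 12496 genes, as Pearson correlation of log2 CPM over the 12 libraries. This is a description over libraries that fall into 4 groups and share depth scaling. MAT1A was most like VSNL1 (0.992) and BZW2 (0.99), and CTH most like ATXN7L3B (0.973) and PPP1R10 (0.968). MAT2B was most like UBL3 (0.98) and GCLC (0.966), the catalytic subunit of the first enzyme of glutathione synthesis. MAT2A was most like LINC02043 (0.965) and ACACA (0.943), and AHCY most like KARS1 (0.989) and WDR1 (0.986). AHCYL1 was most like TERF2 (0.946) and FBXW11 (0.924), and AHCYL2 most like TMEM135 (0.919) and TET2 (0.898). MTR was most like TPM3P9 (0.956) and AC005831.1 (0.954), and MTRR most like SLC25A15 (0.917) and SRPK1 (0.908).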

How the data were processed

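Poly-A selected RNA of 12 libraries was sequenced, per the labels' protocols. The authors deposited raw counts per gene under the column names of featureCounts, per the file headers. The submitters' processing notes name STAR, featureCounts, Subread and hg38. Use of strand and treatment of reads with several matches are not given in the sources used here. Of the gene IDs, 37318 occurred with the same version in GENCODE 29, all with identical GRCh38 coordinates. A gene broken over 5 lines was left out.

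Genes were kept with filterByExpr by group (18289 genes), scaled with TMM and tested with edgeR 4.0.16, with limma 3.58.1 under R 4.3.3. A single robust quasi-likelihood model held the 4 group means. The 6 comparisons used Benjamini-Hochberg adjusted p-values over all tested genes, at a threshold of 0.05. The fit was tested on simulated data for the initial comparison only, with differences near the size of that of MAT1A or larger. Recovery of differences as small as those of the other called members was not tested. Alternatives were DESeq2 1.42.0, RLE scaling, other filters, only the groups compared, a replicate block, summed CBS and CBSL counts, and leaving out each library. Intervals come from the fit and hold the spread between libraries. The floor (3 counts in each library) covers counting error only.

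Genes named by rule are the members, MTHFD2, the copy CBSL, up to 3 called genes per list with the largest average change, genes at the floor, and the 2 most similar genes per member. Overlapping genes, U2AF1 and its copy, PCMT1 and CD320 were added after their values were seen. The members and lists were chosen with earlier results of these data known.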

Additional observations from a re-analysis of the deposited data

How the results depend on the processing

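Of 1135 log2 differences recomputed under alternatives, 1046 kept their direction and side of the threshold, 73 lost the call, 8 gained one and 8 changed sign. These totals include the summing of CBS and CBSL counts, which could change no value because CBSL had 0 counts. Genotype calls of MAT1A, TPMT, LMBRD1, GOT1 and ADK in all 3 comparisons, and of METTL16 initially and on average but not finally, held under every alternative run. So did the average calls of MAT2B, CTH, BMT2, ABCD4, SQOR, CSAD and MPST. Leaving out 1 library, the number of members called was 1 to 5 initially, 2 to 4 finally, 3 to 6 on average and 0 to 1 between harvests in the wild type. For the genes of the 6 lists these ranges were 5 to 11, 5 to 9, 10 to 13 and 0 to 1, and in the wild type between harvests 0 were called with no filter, with only the groups compared or with the replicate block, and 3 with DESeq2. With no low-count filter 3 members were called on average, and with DESeq2 1 between harvests in the wild type. The changes of sign were in log2 differences near 0 that were not called, when 1 library was left out: MAT2A initially (-0.00987 to 0.0694), AHCY finally (-0.0525 to 0.151), AHCY between harvests in the knock-out (-0.178 to 0.0247), AHCYL2 initially (-0.0581 to 0.0465) and MTR initially (-0.0166 to 0.0916). Why these values moved was not tested.

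The replicate numbers did not pair the samples: over 18 same-numbered pairs the correlation of deviations was -0.59 to 0.534, with 8 over 0.1. With the replicate block, 3 members were called initially (MTRR was not), 4 finally and 5 on average. CBS, with at most 2 counts per library, could not be tested.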
